A study of Bos taurus with 96 samples.

Results

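Intermuscular fat (Inter), the fat that lies between muscles, was compared with subcutaneous fat taken over the rump (SC) on a 1-colour Agilent bovine array. The comparison used all 12 arrays labelled intermuscular and all 12 labelled subcutaneous, 24 of the 96 arrays of the study. Each depot held 4 arrays from Angus, 4 from Hereford and 4 from Wagyu x Angus steers, all labelled Pasture_Feeding and all with 259 days in a feedlot. The labels give 259 days as the age too, the same figure as the days in the feedlot, so the age of the animals is not taken from them. The other arrays held intramuscular fat (IMF), kidney fat (Kid), omental fat (Omen) and longissimus dorsi muscle (LD) and serve here only to place the values of Inter and SC. Tissue was dissected after slaughter, and the RNA samples hybridised were picked for their integrity and purity. The study drew its fat depots from one set of steers, with fewer steers per breed than the 8 arrays that a breed has over both depots, so some arrays must share an animal. The labels do not say which, the fit treats all arrays as independent, and p-values measure the spread between these samples.

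White fat depots store triacylglycerol in adipocytes, which make fatty acids from acetate in cattle, take them up from lipoproteins and release them by lipolysis. A depot is also a tissue of vessels, nerves, immune cells, preadipocytes and matrix, and its cells keep an expression pattern of homeobox and other positional genes that reflects where in the body they arose. Intermuscular fat adjoins muscle, its fascia and tendon, whereas rump fat lies under the skin. Since each sample was a piece of whole tissue, fewer cells of a type and less RNA per cell cannot be told apart.

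Levels are log2 of the background-subtracted signal minus the 75th percentile of the array, so that a level of 0 is that percentile, and a difference is Inter minus SC on this log2 scale. Levels of different probes are not compared with each other. The share of the 34227 probes tested that were well above background was 92.37 to 97.84% on the Inter arrays (median 95.81%) and 86.96 to 95.26% on the SC arrays (median 91.12%). The Inter arrays were also brighter, with a median 75th percentile of 10.2 against 9.05 on the log2 scale. All 12 Inter arrays were scanned on one day and no SC array was scanned on it, so on these 24 arrays depot and scan day cannot be told apart. The depots also shared no slide, with 4 slides each. A fit over all 96 arrays, in which Kid, Omen and LD arrays link the days, is given as an alternative, and the scan day term refers to it unless other arrays are named.

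A few Inter arrays stood apart. The profile of each array, as its deviation from the mean of the 5 fat depots over 30239 probes, was correlated with the mean profile of each depot, with the array itself left out. All 12 SC arrays and 10 of the 12 Inter arrays correlated most with their own depot. The library labelled Inter array 5 (Angus) correlated more with Kid (r = 0.356) than with Inter (r = 0.277), and 1 Kid array on the same slide correlated more with Inter (r = 0.566) than with Kid (r = 0.128). Whether the labels of these 2 arrays were exchanged was not tested. Inter array 8 (Wagyu x Angus) correlated most with IMF (r = 0.48 against -0.013 with Inter), and it carried skeletal muscle transcripts, as did Inter array 2 (Wagyu x Angus) at a lower level. These correlations are descriptions across probes, which are not independent replicates. Where a named result rests on 1 of these 3 arrays, its value without that array is given.

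Of the 34227 probes, 16884 (49.3%) passed the threshold, an adjusted p under 0.05 by limma with breed as a covariate and Benjamini-Hochberg adjustment over all probes. Of these, 7467 (21.8%) were higher and 9417 (27.5%) lower in Inter, and the median difference over all probes was -0.05. That split depends on the scaling, as 10326 were higher and 6364 lower with arrays centred on their means, 4521 higher and 18917 lower with normexp background correction, and 30954 higher and 128 lower on the deposited matrix, which carries no scaling between arrays. Most differences were small, with a median size of 0.495 among the probes past the threshold. A difference of 2 or more, a 4-fold change or larger, was found at 136 higher and 79 lower probes. The 12 Inter and the 12 SC arrays did not overlap at 1282 probes (3.75%), 586 (1.71%) of them higher and 696 (2.03%) lower in Inter. Among the 10653 genes that could be named, each by its brightest probe over the fat arrays, 53.1% passed the threshold, 19.9% higher and 33.3% lower, with a median difference of -0.095, and 1.47% were higher and 3.33% lower without overlap. The gene lists below are read against these shares. Under other settings the shares of all named genes differed. They were 23.7% higher and 27.6% lower with quantile normalisation. With normexp relative to the median of all probes they were 37.3% and 23.7%, and with the scan day term 12.7% and 26.5%. Counts under those settings are read against these. Differences of dim probes depend on the background correction. With normexp, relative to the median of all probes, 103 of the 210 probes past the threshold that the selection rule or the text names moved by over 1.5 times, 97 of them to a smaller or opposite value, and 34 no longer passed.

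The widest gap between the depots was in the homeobox genes, transcription factors that mark position along the body and limb. HOXA10 ranged from 0.64 to 2.16 (median 1.36) in SC and from -8.37 to -1.24 (median -5.29) in Inter. All 12 Inter arrays lay below all 12 SC arrays, 8 of them above background, and the difference was -6.46 (SE 0.63, adjusted p = 9.27e-08). No fold is given, since 4 Inter arrays were at background, and with normexp correction the difference was -4.42 (adjusted p = 1.77e-10). The spread within Inter was itself wide, and Inter arrays 5, 7 and 8 held the 3 highest levels. HOXA9, the neighbour of HOXA10 in the cluster, ranged from 0.85 to 1.83 (median 1.38) in SC and from -1.40 to 0.86 (median -0.48) in Inter, with a difference of -1.73 (SE 0.20, adjusted p = 8.5e-07). HOXC10, its counterpart in another cluster, ranged from -1.57 to -0.46 (median -0.91) in SC and from -3.92 to -1.19 (median -3.14) in Inter, with a difference of -2.02 (SE 0.22, adjusted p = 2.71e-07). For both genes 11 of 12 Inter arrays lay below every SC array, and without Inter array 5 the depots did not overlap. HOXA2, of the other end of the cluster, differed by -2.56 (SE 0.22, adjusted p = 2.05e-08) without overlap, and HOXB9 by -1.31 (SE 0.23, adjusted p = 7.01e-05). HOXB2 went the other way without overlap, from -3.95 to -3.095 (median -3.49) in SC and from -2.85 to -2.12 (median -2.45) in Inter, a difference of 1.04 (SE 0.11, adjusted p = 1.71e-07), and HOXA5 differed by 0.73 (SE 0.11, adjusted p = 1.58e-05). Of the 18 HOX genes tested 9 were lower, 4 higher and 5 did not pass the threshold, with a median of -0.36, where 33.3% of all named genes were lower and 19.9% higher.

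Positional transcription factors outside the HOX clusters showed gaps of the same kind. IRX5, an Iroquois homeobox gene, had 3 probes, all lower in Inter, of which the one with the largest difference ranged from -1.03 to 0.03 (median -0.46) in SC and from -6.09 to -3.62 (median -4.91) in Inter. Its difference was -4.35 (SE 0.20, adjusted p = 3.29e-12), that of the brightest probe was -3.19 (SE 0.22, adjusted p = 2.79e-09), and both were without overlap. IRX3, which lies beside IRX5, ranged from 2.24 to 3.35 (median 2.96) in SC and from 0.28 to 2.08 (median 0.94) in Inter, a difference of -1.83 (SE 0.17, adjusted p = 4.68e-08), again without overlap. EN1, an engrailed homeobox gene, ranged from -1.59 to -0.37 (median -0.71) in SC and from -5.97 to -2.59 (median -3.55) in Inter. All 12 Inter arrays were below all 12 SC arrays, with Inter array 5 far below the rest at -5.97, and the difference was -2.82 (SE 0.23, adjusted p = 1.71e-08), or -2.64 (adjusted p = 7.1e-10) without that array. MSX2, SHOX2 and TBX4, genes of limb and skeletal patterning, were lower by smaller amounts (-1.04, -0.84 and -0.77, adjusted p = 1.63e-06, 0.00183 and 1.12e-05). ZIC4, a zinc finger gene of dorsal patterning, was the largest exception. It ranged from -8.42 to -5.44 (median -6.60) in SC, with 3 of its 12 arrays above background, and from -7.005 to -0.64 (median -1.26) in Inter, a difference of 4.997 (SE 0.54, adjusted p = 2.78e-07), which with normexp correction fell to 2.02 (adjusted p = 1.38e-06). Inter array 5 lay at the lowest of these levels, within the SC range, and the other 11 Inter arrays lay between -1.84 and -0.64, above every SC array. Without that array the depots did not overlap and the difference was 5.47 (adjusted p = 1.48e-10). Over the 26 genes of the list 12 were lower, 5 higher and 9 did not pass, with a median of -0.48, and 4 of the lower genes had no overlap.

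Beside the other tissues, the order of the levels differed from gene to gene. The mean ZIC4 level in Inter (-1.66 ± 1.73, SD, n = 12 arrays) stood nearest to IMF (-0.36 ± 0.48, n = 12) and LD (0.58 ± 0.28, n = 36), whereas Kid (-7.32 ± 2.47) and Omen (-8.39 ± 0.68) were near SC (-6.66 ± 0.94). One Kid array reached -1.11, which is within the range of the other Inter arrays. For EN1, SC (-0.83 ± 0.40) lay above all other tissues, of which LD (-3.88 ± 0.38), Inter (-3.65 ± 0.88) and IMF (-4.22 ± 0.33) did not differ from each other beyond their spread. HOXA10 was higher in SC (1.36 ± 0.40) than in any other tissue, and Inter (-5.10 ± 2.21) held the lowest mean after Omen (-8.08 ± 0.92). The differences of IMF, Kid and Omen from SC share the SC arrays with that of Inter, so these levels are given side by side as a description.

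**Figure D1:**
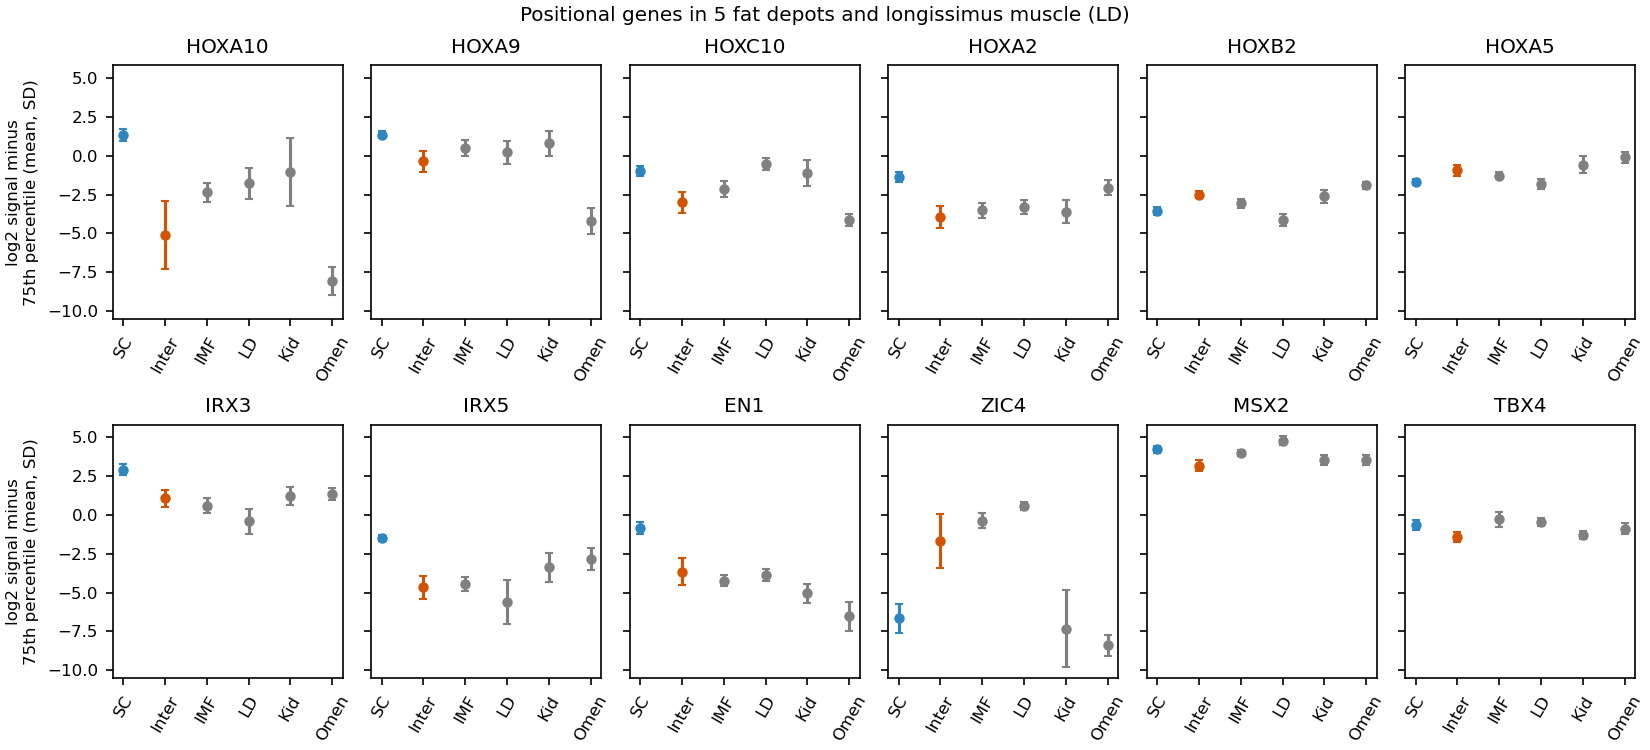
Levels of 12 positional genes (log2 signal minus the 75th percentile of the array, vertical axis) in the 6 tissues, as the mean and SD over 12 arrays of each fat depot and 36 of LD, with SC in blue, Inter in orange and the others in grey; IRX5 is shown by its brightest probe. HOXA10, HOXA9, HOXC10, HOXA2, IRX3, IRX5, EN1, MSX2 and TBX4 were lower in Inter than SC, and ZIC4, HOXB2 and HOXA5 higher.

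Among all named genes without overlap, the 10 with the largest gain in Inter were led by PHLDA2, an imprinted gene that restrains growth. It ranged from -5.24 to -1.72 (median -3.04) in SC and from -0.89 to 3.78 (median 1.58) in Inter, a difference of 4.46 (SE 0.39, adjusted p = 2.69e-08) or 22-fold, and every array of both depots was above background. FNDC1, a fibronectin type III domain protein, ranged from -7.14 to -4.79 (median -6.07) in SC, with 5 of its 12 arrays above background, and from -3.49 to -0.47 (median -1.72) in Inter, a difference of 4.20 (SE 0.33, adjusted p = 9.15e-09). EYA2, a transcriptional coactivator of muscle and placode development, ranged from -7.23 to -4.39 (median -5.31) in SC and from -3.63 to 0.57 (median -1.63) in Inter and differed by 3.64 (SE 0.40, adjusted p = 3.55e-07). By definition of the choice, the 12 Inter arrays of each gene were above the 12 SC arrays. NR4A3, an orphan nuclear receptor, differed by 3.44 (SE 0.35, adjusted p = 1.4e-07), the desmosome protein gene DSP by 3.34 (SE 0.38, adjusted p = 5.64e-07) and the gap junction gene GJB6 by 3.06 (SE 0.32, adjusted p = 1.71e-07). ZNF385B, MGC148692 and PTHLH, the last the gene of a parathyroid hormone-like peptide, differed by 3.06, 3.06 and 3.03. LGI1, a secreted leucine-rich repeat protein, was not well above background on any SC array, and was at least 2.62-fold higher in Inter (adjusted p = 2.6e-05). With normexp correction the differences of NR4A3, GJB6 and PTHLH fell to 0.78, 0.65 and 1.05 and those of FNDC1 and EYA2 to 1.51 and 1.54, while PHLDA2 differed by 3.34. DSP, ZNF385B and LGI1 did not pass with it (0.29, 0.12 and -0.08, adjusted p = 0.141, 0.541 and 0.8), although DSP and ZNF385B did relative to the median of all probes.

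Among probes whose mean over the 24 arrays was above 0, PROCR led the gains. PROCR, the endothelial receptor of protein C, ranged from 1.75 to 3.19 (median 2.29) in SC and from 4.13 to 6.93 (median 5.20) in Inter, a difference of 2.87 (SE 0.25, adjusted p = 3.25e-08). The 2 highest levels, above 6, were in Hereford arrays. RGS1, a regulator of G protein signalling in leukocytes, ranged from 0.66 to 2.38 (median 2.16) in SC and from 3.49 to 5.42 (median 4.19) in Inter and differed by 2.44 (SE 0.23, adjusted p = 5.84e-08). GPAT3, an enzyme of the first step of glycerolipid synthesis, followed at 2.33 (SE 0.23, adjusted p = 1.31e-07). CLK1, MAFF, STC1, TSC22D3, FBLN5, IER5 and SKAP2 completed the 10, with differences from 1.17 (SKAP2) to 1.94 (CLK1). With a scan day term over the 96 arrays the difference of CLK1, a splicing kinase, was 1.26 (adjusted p = 1.11e-06).

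Of the 10 largest losses without overlap, HOXA10, IRX5, EN1 and HOXA2 were homeobox genes described above, and LHX1 was a further one. LHX1 ranged from -4.27 to -1.92 (median -3.02) in SC and from -6.38 to -5.21 (median -5.77) in Inter and differed by -2.82 (SE 0.24, adjusted p = 2.05e-08), which the scan day term reduced to -1.28 (adjusted p = 0.00859). IGFBP5, a binding protein of insulin-like growth factors, had 4 probes, all lower, of which the leading one ranged from -0.33 to 1.37 (median 0.16) in SC and from -3.46 to -0.59 (median -1.95) in Inter. Its difference was -2.33 (SE 0.21, adjusted p = 4e-08), against -1.40 (SE 0.19, adjusted p = 5.52e-06) for the brightest probe, which overlapped. ZCCHC12, FAM209A and the small nucleolar RNA SNORA70 differed by -2.54, -2.50 and -2.43 (adjusted p = 4.63e-06, 1.65e-08 and 2.42e-07), and with the scan day term ZCCHC12 differed by -1.52 (adjusted p = 0.000129). C2CD6 was not well above background on any Inter array and was at least 2.45-fold lower there (adjusted p = 2.76e-07).

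Among probes with a mean above 0 the losses included ZCCHC12 and IRX3, and were otherwise led by BABAM2 and IGFBP3. BABAM2, a member of a DNA repair complex, ranged from 3.57 to 5.57 (median 5.20) in SC and from 2.17 to 3.50 (median 2.72) in Inter and differed by -2.10 (SE 0.25, adjusted p = 9.49e-07), or by -0.85 (adjusted p = 0.0137) with the scan day term. Its other probe did not pass the threshold. IGFBP3, which carries insulin-like growth factors in the circulation, ranged from 5.55 to 6.95 (median 6.46) in SC and from 3.53 to 5.20 (median 4.73) in Inter. The depots did not overlap, all 3 probes were lower, and the difference was -1.79 (SE 0.19, adjusted p = 2.1e-07), or 3.45-fold. ADGRA1, the sphingosine 1-phosphate receptor gene S1PR3, the AP-1 gene FOSB, the diacylglycerol kinase gene DGKQ, NAB2 and the splicing factor gene SRSF5 completed the 10, with differences from -1.73 (ADGRA1) to -1.44 (SRSF5). For ADGRA1 and FOSB the difference with the scan day term was -1.004 (adjusted p = 0.000134) and -1.002 (adjusted p = 0.00426).

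**Figure D2:**
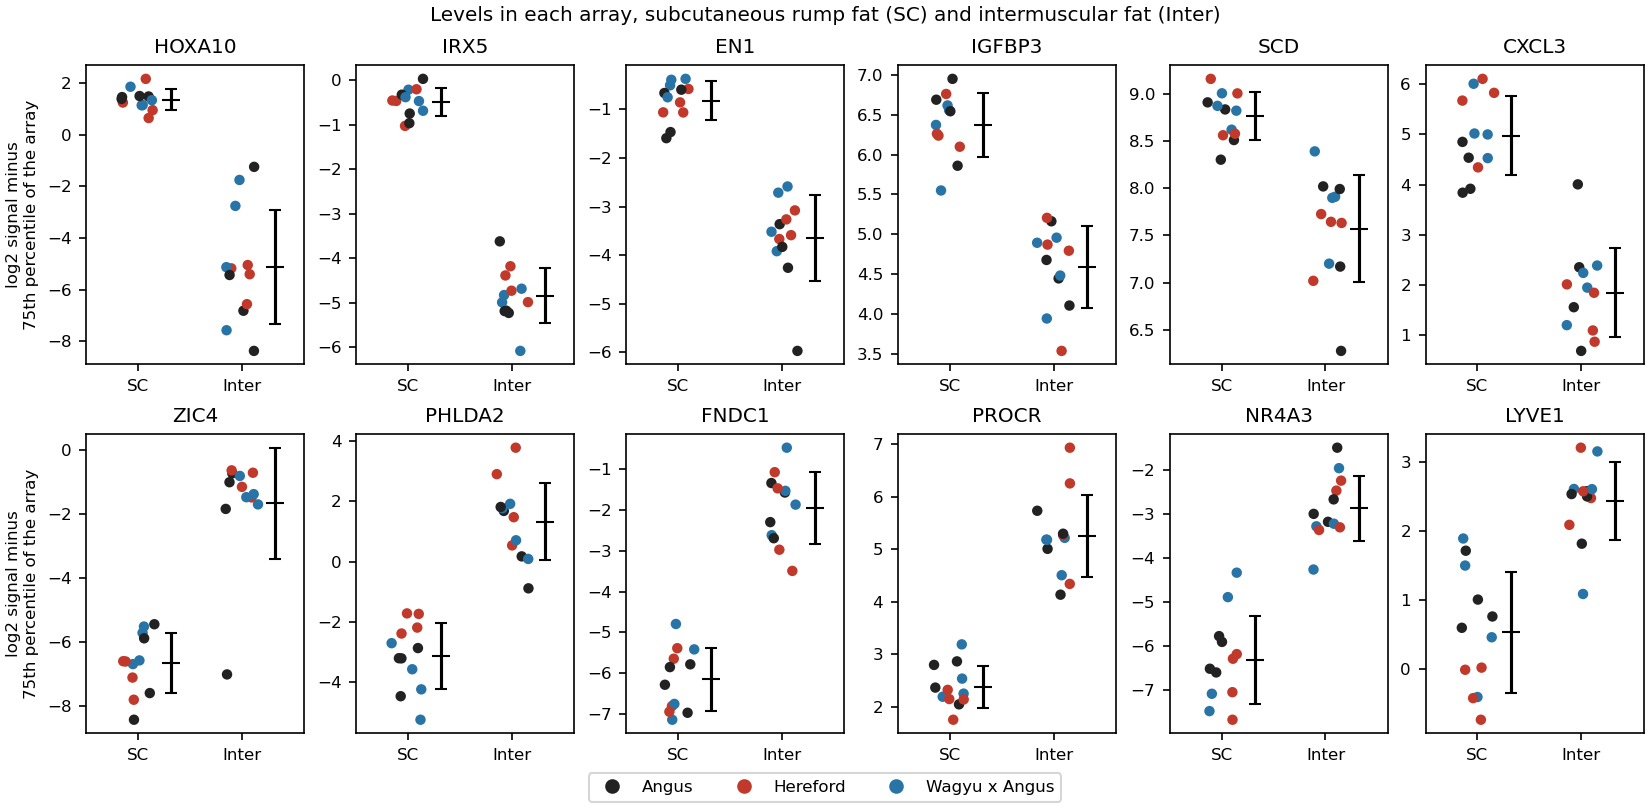
Level of 12 genes in each SC and Inter array (log2 signal minus the 75th percentile of the array, vertical axis), with points coloured by breed and bars for the mean and SD over 12 arrays; IRX5 is shown by the probe with the largest difference. HOXA10, IRX5, EN1, IGFBP3, SCD and CXCL3 were lower in Inter and ZIC4, PHLDA2, FNDC1, PROCR, NR4A3 and LYVE1 higher, and the single low Inter point of ZIC4 and EN1 is Inter array 5.

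In the list of fatty acid synthesis 7 of 19 genes were lower (36.8%) and 2 higher, near the shares of all named genes (33.3% and 19.9%), with a median of -0.18. SCD, the desaturase that makes monounsaturated fatty acids, ranged from 8.30 to 9.16 (median 8.83) in SC and from 6.28 to 8.39 (median 7.68) in Inter. All but 1 of the Inter arrays were below every SC array, 6 of its 7 probes passed the threshold, and the difference was -1.19 (SE 0.17, adjusted p = 8.19e-06). With quantile normalisation it was -0.61, and that of FASN, fatty acid synthase, -0.65. ACACA, acetyl-CoA carboxylase, ranged from -0.07 to 1.31 (median 0.63) in SC and from -1.93 to 0.93 (median -0.47) in Inter and differed by -1.28 (SE 0.27, adjusted p = 0.000452). FASN ranged from 7.65 to 8.61 (median 7.89) in SC and from 5.30 to 7.91 (median 7.30) in Inter and differed by -1.03 (SE 0.26, adjusted p = 0.00228). For both genes the depots overlapped, and with the scan day term ACACA no longer passed (-0.49, adjusted p = 0.314) while FASN differed by -1.53 (adjusted p = 0.000943). MID1IP1, an activator of acetyl-CoA carboxylase, was also lower (-1.18, SE 0.32, adjusted p = 0.00483). In the opposite direction FADS2, a desaturase of polyunsaturated fatty acids, differed by 1.22 (SE 0.20, adjusted p = 3.46e-05) with 11 of 12 Inter arrays above every SC array, and ACLY, which makes acetyl-CoA from citrate, by 0.52 (SE 0.14, adjusted p = 0.00399), a call that the scan day term ended (0.26, adjusted p = 0.204).

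The glycerol branch of triacylglycerol synthesis was mixed, with 5 of 15 genes higher and 6 lower and a median of 0.07. GPAT3 was the largest gain, ranging from -0.43 to 1.39 (median 0.38) in SC and from 1.32 to 3.35 (median 2.77) in Inter by its brightest probe, a difference of 2.23 (SE 0.22, adjusted p = 1.14e-07), and all 3 of its probes were higher. PCK1, the cytosolic enzyme of glyceroneogenesis, ranged from 1.23 to 3.32 (median 2.03) in SC and from 2.27 to 5.16 (median 3.83) in Inter and differed by 1.68 (SE 0.30, adjusted p = 7.64e-05). Its mitochondrial counterpart PCK2 went the other way, ranging from 4.83 to 5.94 (median 5.58) in SC and from 3.1 to 5.28 (median 4.68) in Inter, with a difference of -1.16 (SE 0.25, adjusted p = 0.000569). LPIN1, a phosphatidate phosphatase, was higher (1.45, SE 0.28, adjusted p = 0.000185), and DGAT2, which adds the last acyl chain, lower (-0.50, SE 0.15, adjusted p = 0.00957). With quantile normalisation, by which 23.7% of all named genes were higher and 27.6% lower, the list held 6 higher and 3 lower genes.

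Lipolysis and lipid droplet genes were more often lower, 11 of 21 against 3 higher, with a median of -0.41. ADRB3, the beta-3 adrenergic receptor that starts lipolysis, was the exception in size. It ranged from -4.97 to -3.09 (median -4.09) in SC and from -3.61 to 0.90 (median -0.74) in Inter, 10 of 12 Inter arrays lay above every SC array, and the difference was 3.02 (SE 0.40, adjusted p = 2.92e-06), or 1.58 (adjusted p = 0.00019) with normexp correction. ABHD5, the coactivator of the first lipase, was also higher (0.81, SE 0.16, adjusted p = 0.000234), whereas that lipase, PNPLA2, and the last one, MGLL, were lower by -0.41 and -0.68 (adjusted p = 0.00759 and 0.000216). With quantile normalisation PNPLA2 differed by -0.17 and did not pass, and the list held 8 lower and 3 higher genes. With normexp correction relative to the median of all probes PNPLA2 did not pass either, and 6 genes were lower and 4 higher. ADRA2A, the receptor that restrains lipolysis, differed by -0.79 (SE 0.11, adjusted p = 8.35e-06), or by -0.46 with the scan day term. PLIN3, a lipid droplet coat protein, ranged from 0.94 to 1.68 (median 1.25) in SC and from 0.04 to 0.77 (median 0.35) in Inter and differed by -0.94 (SE 0.09, adjusted p = 6.22e-08) without overlap.

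Markers that define adipocytes were present on every array of both depots. Of 12 tested, FABP4, CIDEC and CEBPA were lower (-0.62, -0.61 and -0.51, adjusted p = 1.72e-06, 3.01e-05 and 0.0034) and ADIPOQ, the gene of adiponectin, higher (0.31, SE 0.10, adjusted p = 0.0112), but with quantile normalisation none of the 12 was lower, 2 were higher and FABP4 changed sign (0.06), and CIDEC did not pass with the scan day term (-1.28, adjusted p = 0.0506). That term gave FABP4 a difference of -1.22 (adjusted p = 0.0478) and CEBPA one of -0.90 (adjusted p = 0.000443), both further from 0. The summed level of the 12 markers was 9.12 to 9.79 on the log2 scale in Inter and 9.66 to 10.25 in SC. The ADIPOQ difference rested on small steps and with the scan day term was -0.19 (adjusted p = 0.764). PPARG, the master regulator of adipocytes, PLIN1, LPL and LEP did not pass, with differences of -0.06, -0.08, 0.03 and 0.18. In the list of fatty acid uptake 6 of 13 genes were lower and none higher, against 4 lower and 2 higher with quantile normalisation. With normexp correction relative to the median of all probes 2 were lower and 5 higher, where 23.7% of all named genes were lower and 37.3% higher. In this list ANGPTL4, an inhibitor of lipoprotein lipase, ranged from 3.59 to 5.16 (median 4.62) in SC and from 2.69 to 4.21 (median 3.76) in Inter and differed by -0.88 (SE 0.15, adjusted p = 5.63e-05). The acyl-CoA synthetase transporters SLC27A1 and SLC27A4 differed by -0.39 and -0.51, and neither passed with the scan day term.

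Some genes tied to brown and beige fat were higher in Inter. COX8B, a cytochrome oxidase subunit of muscle and brown fat, ranged from -2.25 to 0.33 (median -1.05) in SC and from -1.81 to 2.27 (median 1.16) in Inter and differed by 1.72 (SE 0.46, adjusted p = 0.00352). Its mean level was highest in LD (6.16) and IMF (4.14). PPARGC1A, TMEM26 and EBF2 were also higher (0.73, 1.19 and 0.32, adjusted p = 0.00889, 0.000521 and 0.0172), none of which passed with the scan day term, and TMEM26 was above background on 8 Inter arrays and 1 SC array. With normexp correction the sign of TMEM26 turned (-0.64, adjusted p = 4.29e-05). UCP1, the uncoupling protein that defines brown fat, was above background on 7 of 12 Inter and 2 of 12 SC arrays, and its difference of 1.22 did not pass (adjusted p = 0.0685). On the other side, CIDEA differed by -0.63 and did not pass (adjusted p = 0.0535). With the scan day term CIDEA and CKMT1A were lower (-0.78 and -0.57, adjusted p = 0.0284 and 0.0135). The summed level of the list was 3.68 to 5.52 (median 4.57) on the log2 scale in Inter and 4.07 to 5.69 (median 4.82) in SC. Of the 10 genes 4 were higher and none lower, but 1 was higher and 2 lower with the scan day term, with which 12.7% of all named genes were higher and 26.5% lower, and 4 were higher and 3 lower with normexp correction relative to the median of all probes, by which 37.3% of all named genes were higher and 23.7% lower. Among 16 adipokines and secreted factors 3 were higher and 3 lower. C1QTNF3, an adiponectin relative, ranged from -2.81 to -0.29 (median -1.58) in SC and from -0.48 to 1.96 (median 0.03) in Inter and differed by 1.93 (SE 0.30, adjusted p = 1.93e-05), while C1QTNF1 was lower (-0.68, SE 0.16, adjusted p = 0.00142). GREM1, a secreted inhibitor of bone morphogenetic proteins, was lower (-1.38, SE 0.33, adjusted p = 0.00173), and NAMPT was higher (0.54, SE 0.10, adjusted p = 8.65e-05) but did not pass with the scan day term (0.26, adjusted p = 0.322).

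Of 19 growth factor and imprinted genes of preadipocytes 6 were lower (31.6%) and 2 higher, with a median of -0.21, where 33.3% of all named genes were lower. IGF2, an imprinted growth factor, ranged from 6.80 to 7.46 (median 7.12) in SC and from 5.46 to 6.79 (median 6.20) in Inter. The depots did not overlap, all 10 of its probes were lower, and the difference was -0.98 (SE 0.11, adjusted p = 3.87e-07). IGFBP4 was lower with the other binding proteins named above (-0.62, SE 0.15, adjusted p = 0.00126). NNAT, an imprinted membrane protein, was higher (1.41, SE 0.40, adjusted p = 0.00584), and ranged widely in Inter, from 0.62 to 5.404 (median 3.28).

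DLK1, which marks preadipocytes, had 5 probes that disagreed. Its brightest probe ranged from 2.33 to 3.21 (median 2.86) in SC and from 1.59 to 3.94 (median 2.41) in Inter, a difference of -0.34 (SE 0.19, adjusted p = 0.15) that did not pass, although without Inter array 5 it was -0.49 (adjusted p = 0.00659). Of the others, 3 were higher in Inter, by 4.78, 3.94 and 2.03 (adjusted p = 7.14e-07, 5.28e-06 and 0.000391), and were above background on 8, 3 and 10 of the 12 SC arrays. With normexp correction these differences were 2.94, 0.80 and 0.65 (adjusted p = 7.07e-06, 0.0357 and 0.0545). The remaining probe differed by 0.13 (adjusted p = 0.665). No direction is therefore given for the gene.

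Of 24 collagen genes 13 were lower, 3 higher and 8 did not pass, with a median of -0.46. COL1A1, a chain of type I collagen, ranged from 5.49 to 6.93 (median 6.27) in SC and from 3.15 to 5.97 (median 4.71) in Inter and differed by -1.49 (SE 0.28, adjusted p = 0.000168). Its partner COL1A2 differed by -1.17 (SE 0.27, adjusted p = 0.00101), and COL3A1, the main chain of reticular fibres, by -0.84 (SE 0.12, adjusted p = 8.02e-06). COL18A1, a basement membrane collagen, ranged from 5.64 to 6.60 (median 6.02) in SC and from 4.81 to 5.61 (median 5.19) in Inter and differed by -0.90 (SE 0.09, adjusted p = 7.55e-08) without overlap. The 3 higher genes were COL15A1 (0.56, SE 0.11, adjusted p = 0.000278), COL28A1 (1.80, SE 0.49, adjusted p = 0.00433) and COL11A2, which was not well above background on any SC array and was at least 1.33-fold higher (adjusted p = 0.0182). With normexp correction neither COL28A1 nor COL11A2 passed (0.03 and -0.23, adjusted p = 0.907 and 0.503), and COL11A2 did not pass with slide as a random block (adjusted p = 0.059).

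Matrix proteases and their inhibitors were split evenly, with 5 of 23 higher and 5 lower. ADAMTS4, which cleaves aggrecan, ranged from 0.35 to 2.02 (median 1.04) in SC and from 1.35 to 4.94 (median 3.53) in Inter, 11 of 12 Inter arrays lay above every SC array, and the difference was 2.43 (SE 0.29, adjusted p = 1.05e-06). ADAMTS1, PLAT, the tissue plasminogen activator, and MMP16 were higher too (1.21, 0.87 and 1.03, adjusted p = 2.06e-05, 0.000173 and 0.00067). TIMP4, an inhibitor of metalloproteases expressed in fat, and MMP14 were lower (-0.77 and -0.71, adjusted p = 8.69e-05 and 5.67e-05).

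In the list of WNT, BMP and TGF-beta signals 10 of 29 genes were higher and 8 lower. THBS1, a matrix protein that activates latent TGF-beta, ranged from 1.42 to 3.61 (median 2.50) in SC and from 3.24 to 5.73 (median 4.02) in Inter and differed by 1.86 (SE 0.27, adjusted p = 7.14e-06). LTBP1, which holds TGF-beta in the matrix, differed by 1.37 (SE 0.18, adjusted p = 2.23e-06), the ligand gene WNT2B by 1.72 (SE 0.25, adjusted p = 1.04e-05) and INHBA, a subunit of activins, by 1.23 (SE 0.39, adjusted p = 0.0129). FST, an inhibitor of activins, was higher (0.82, SE 0.15, adjusted p = 0.000132) but did not pass with the scan day term (0.38, adjusted p = 0.254). On the lower side, NOG, which encodes the BMP antagonist noggin, ranged from -1.98 to 0.03 (median -0.95) in SC and from -4.00 to -1.04 (median -2.85) in Inter and differed by -1.599 (SE 0.30, adjusted p = 0.000156), and BMP2 itself by -1.0 (SE 0.17, adjusted p = 4.74e-05). SFRP2, a secreted WNT antagonist, differed by -1.52 (SE 0.42, adjusted p = 0.00442), but 1 Inter array was above every SC array, and with the scan day term the difference was -1.03 (adjusted p = 0.0259).

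In the list of tendon and perimysium, the connective tissue around muscle bundles, 7 of 16 genes were higher in Inter, some of them on few arrays. TNMD, a tendon membrane protein, ranged from -8.60 to -0.80 (median -7.70) in SC and from -7.36 to 3.75 (median -4.65) in Inter, with 3 Inter arrays above every SC array, and differed by 4.16 (SE 1.22, adjusted p = 0.00734). One SC array stood at -0.80, far above the SC median. THBS4, a thrombospondin of tendon and muscle, ranged from -1.87 to 0.79 (median -0.69) in SC and from -0.28 to 6.72 (median 2.18) in Inter, where 10 of 12 arrays lay above every SC array, and differed by 3.33 (SE 0.65, adjusted p = 0.000232). CILP2 and MKX, a transcription factor of tendon, differed by 3.32 (SE 0.99, adjusted p = 0.00793) and 2.33 (SE 0.69, adjusted p = 0.00802) with a wide spread in Inter, where they reached 4.49 and 0.63 against medians of -3.81 and -4.20. With normexp correction neither TNMD nor MKX passed (1.31 and 0.58, adjusted p = 0.161 and 0.222). TNC and ASPN, matrix proteins of fascia, were higher with less spread (TNC 2.14, SE 0.56, adjusted p = 0.00311, and ASPN 1.74, SE 0.27, adjusted p = 1.71e-05). Of the other genes 1 was lower and 8 did not pass, the median over the list was 1.57, and without Inter arrays 2 and 8, where 18.9% of all named genes were higher and 31.2% lower, the count was 6 higher and 1 lower. The summed level of the list was nonetheless alike, 6.72 to 8.71 (median 7.65) on the log2 scale in Inter and 7.17 to 7.99 (median 7.66) in SC.

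Skeletal myofibre genes were high on 2 Inter arrays. MYH2, a fast myosin heavy chain, stood at 3.67 on Inter array 2 and 6.87 on Inter array 8, at -6.06 to -0.14 on the other 10 Inter arrays and at -8.44 to -5.09 on the SC arrays, of which 1 was above background. The difference over all arrays was 5.08 (SE 1.01, adjusted p = 0.000275), and without those 2 arrays it was 3.73 (adjusted p = 0.000104). MYL2, a regulatory light chain, stood at 3.65 and 7.10 on the same arrays, at -6.05 to -0.14 on the other Inter arrays and at -8.09 to -3.74 in SC. Its difference was 4.12 (SE 1.11, adjusted p = 0.00403), or 2.64 (adjusted p = 0.00476) without them. MYL1 and TNNT1 differed by 3.50 and 2.84 (adjusted p = 0.00352 and 0.0127), and by 2.24 (adjusted p = 0.00287) and 1.56 (adjusted p = 0.0123) without these arrays. CKM, muscle creatine kinase, and TTN, titin, differed by 2.09 and 1.85 (adjusted p = 0.0196 and 0.0273), and by 1.02 (adjusted p = 0.00735) and 0.87 (adjusted p = 0.0168) without them. Leaving out Inter array 2 alone ended the call of TTN. With slide as a random block CKM, TTN and TNNT1 did not pass (adjusted p = 0.0879, 0.113 and 0.0621), nor did they with normexp correction (adjusted p = 0.102, 0.0805 and 0.52). Of 25 genes 8 were higher and none lower, with a median of 1.09, and without Inter arrays 2 and 8 there were 6 higher and none lower, with a median of 0.35. The summed level of the list was 7.4 and 10.2 on the log2 scale on Inter arrays 2 and 8, 5.1 to 6.2 on the other Inter arrays and 5.1 to 6.0 on the SC arrays, against 10.6 to 12.3 in IMF and 12.6 to 13.4 in LD. The part of muscle transcripts in the other differences was not tested beyond leaving out both arrays, which left 15802 probes past the threshold.

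**Figure D3:**
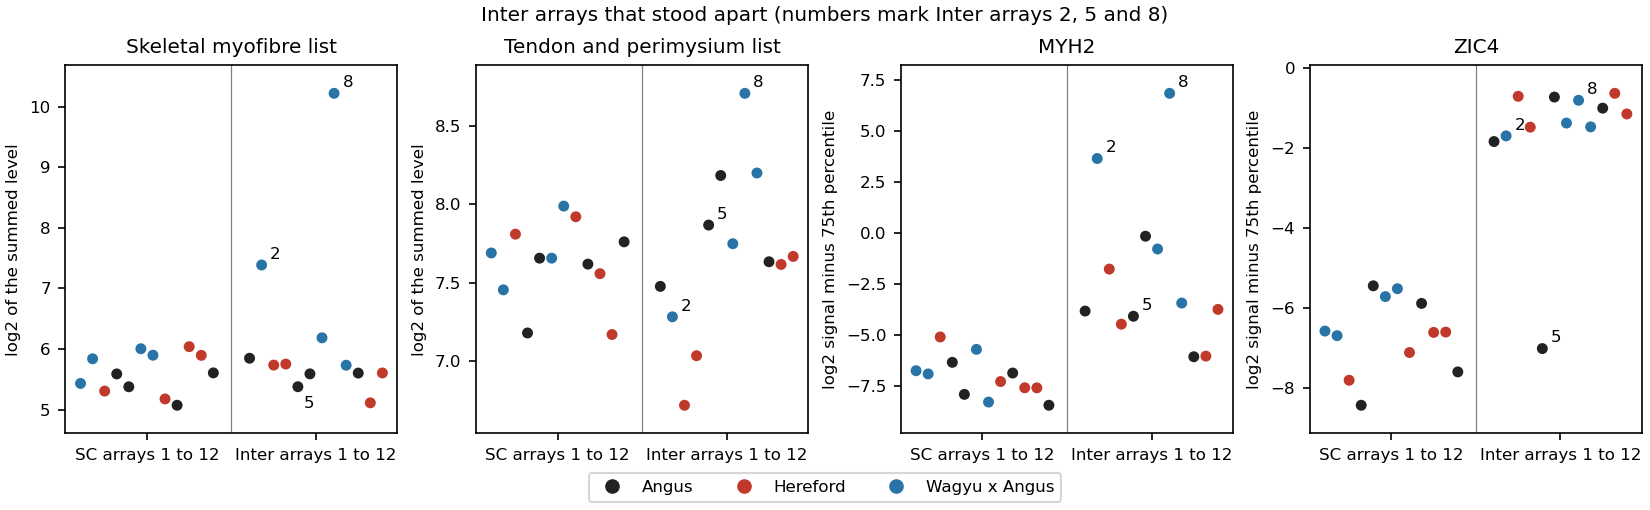
Values of the 12 SC and 12 Inter arrays in order of array number, coloured by breed, for the summed level of the myofibre and the tendon lists (log2 of the sum) and the levels of MYH2 and ZIC4 (log2 signal minus the 75th percentile of the array). Inter arrays 2 and 8 stand above the rest for the myofibre list and MYH2, and Inter array 5 lies among the SC arrays for ZIC4.

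Of 7 lymphatic genes 5 were higher in Inter and none lower, with a median of 1.59. LYVE1, a hyaluronan receptor of lymphatic endothelium that macrophages also carry, ranged from -0.74 to 1.88 (median 0.52) in SC and from 1.08 to 3.20 (median 2.55) in Inter, 10 of 12 Inter arrays lay above every SC array, and the difference was 1.90 (SE 0.28, adjusted p = 1.17e-05). PROX1, the transcription factor that defines lymphatic endothelium, ranged from -8.03 to -5.43 (median -7.01) in SC, with 3 of its 12 arrays above background, and from -5.73 to -4.10 (median -4.98) in Inter, where all were, and differed by 1.93 (SE 0.30, adjusted p = 1.72e-05), although with normexp correction it was lower (-0.37, adjusted p = 0.0139, or -0.09 relative to the median of all probes). MMRN1 and RELN differed by 1.99 (SE 0.31, adjusted p = 2.29e-05) and 1.595 (SE 0.28, adjusted p = 7.2e-05). Among 14 genes of blood endothelium 6 were lower and 3 higher, but 1 was lower and 5 higher with normexp correction relative to the median of all probes. With that setting 37.3% of all named genes were higher and 23.7% lower. The growth factor receptors FLT1 and KDR were higher (1.08, SE 0.15, adjusted p = 5.84e-06, and 0.80, SE 0.13, adjusted p = 2.2e-05), each with 11 of 12 Inter arrays above every SC array. ROBO4 and SOX18 were lower (-0.60, SE 0.10, adjusted p = 2.34e-05, and -0.67, SE 0.15, adjusted p = 0.000729). Of 13 smooth muscle and pericyte genes SMTN, CSPG4 and MCAM were lower (-0.66, -0.62 and -0.53, adjusted p = 0.00106, 0.00849 and 0.00114) and none higher, but with the scan day term 3 were higher and 1 lower, and with normexp correction relative to the median 4 were higher and none lower. Their summed level in SC reached 8.69 on 1 array against a median of 7.10.

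Nerve genes were split. GFRA3, a receptor of nerve growth signals on Schwann cell precursors, ranged from -4.60 to -3.29 (median -3.65) in SC and from -3.25 to -1.36 (median -2.75) in Inter without overlap and differed by 1.10 (SE 0.19, adjusted p = 8.09e-05). PMP22, a myelin protein that other cells also make, differed by 0.62 (SE 0.08, adjusted p = 1.19e-06) without overlap, but did not pass with the scan day term (0.54, adjusted p = 0.0729). CDH19 and ERBB3 were higher (1.36, SE 0.31, adjusted p = 0.00107, and 1.23, SE 0.28, adjusted p = 0.000971) but did not pass with the scan day term, which gave 0.92 (adjusted p = 0.169) and 1.05 (adjusted p = 0.0908). S100B, which Schwann cells and adipocytes both express, ranged from 4.70 to 5.90 (median 5.08) in SC and from 2.98 to 4.95 (median 4.23) in Inter and differed by -1.06 (SE 0.20, adjusted p = 0.000156). Of 14 genes 5 were higher and 2 lower, against 1 and 2 with the scan day term.

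In the macrophage list 3 of 17 genes were lower (17.6%) and 2 higher, against 33.3% and 19.9% of all named genes. CD163, a haemoglobin scavenger receptor, ranged from 0.20 to 2.99 (median 2.09) in SC and from -1.89 to 0.74 (median -0.38) in Inter, 8 of 12 Inter arrays lay below every SC array, and the difference was -2.37 (SE 0.33, adjusted p = 5.37e-06). Of its 4 probes 3 were lower and 1 higher. CD163L1, its relative, differed by -2.10 (SE 0.31, adjusted p = 9.71e-06) with all 7 probes lower. VSIG4, a complement receptor of macrophages, differed by -0.80 (SE 0.27, adjusted p = 0.0168), a call that was lost without Inter arrays 2 and 8 (-0.57, adjusted p = 0.0657). The 2 higher genes were LYVE1, described above, and C1QB, a subunit of complement C1q that macrophages make (0.71, SE 0.29, adjusted p = 0.0449). The call of C1QB ended with the scan day term (0.28, adjusted p = 0.536), with slide as a random block (adjusted p = 0.14) and when any 1 of 17 arrays was left out. Without Inter arrays 2 and 8, 2 genes of the list were lower and 6 higher. The summed level of the list was 5.68 to 7.70 (median 7.14) on the log2 scale in Inter and 5.81 to 8.01 (median 6.40) in SC, so the depots overlapped. The scavenger receptors MSR1 and STAB1 did not pass (0.13 and -0.10, adjusted p = 0.706 and 0.699). CD68, a lysosomal marker, differed by -0.20 (adjusted p = 0.577).

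Chemokines and complement held some of the larger immune differences. CXCL3, which draws neutrophils, ranged from 3.84 to 6.11 (median 4.93) in SC and from 0.68 to 4.00 (median 1.89) in Inter, and 11 of 12 Inter arrays lay below every SC array. The difference was -3.13 (SE 0.34, adjusted p = 3e-07), or 8.73-fold, and without Inter array 5, which held the highest Inter level, the depots did not overlap. CXCL14 and CXCL12 were lower (-1.38, SE 0.42, adjusted p = 0.00949, and -1.10, SE 0.21, adjusted p = 0.000192), while CXCL8 and the eosinophil chemokine CCL24 were higher (1.52, SE 0.25, adjusted p = 3.56e-05, and 1.37, SE 0.30, adjusted p = 0.000594), CCL24 not with the scan day term. Over 23 chemokines 8 were lower, near the share of all named genes (33.3%), and 3 higher, where 19.9% of all named genes were higher. C3, the central complement protein, ranged from 0.25 to 3.00 (median 1.64) in SC and from -1.17 to 2.20 (median -0.14) in Inter and differed by -1.54 (SE 0.33, adjusted p = 0.000656), with all 5 probes lower. C2 and MASP1 were lower (-1.11, SE 0.26, adjusted p = 0.00149, and -1.14, SE 0.20, adjusted p = 6.11e-05). Of 25 complement genes 7 were lower and 5 higher, against 4 and 7 with quantile normalisation.

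Of 20 interferon-stimulated genes 10 were lower, 1 higher and 9 did not pass, with a median of -0.58. RSAD2, the antiviral protein viperin, ranged from -1.08 to 0.03 (median -0.45) in SC and from -2.89 to -1.27 (median -2.31) in Inter without overlap and differed by -1.79 (SE 0.15, adjusted p = 2.12e-08), or by -1.15 (adjusted p = 0.000715) with the scan day term. IRF7, a regulator of interferon genes, ranged from 0.13 to 0.70 (median 0.41) in SC and from -0.91 to -0.02 (median -0.62) in Inter, also without overlap, and differed by -0.92 (SE 0.10, adjusted p = 2.66e-07). IFI27 and ISG15 were lower too (-1.19, SE 0.27, adjusted p = 0.00102, and -1.21, SE 0.23, adjusted p = 0.000168), ISG15 not past the threshold with the scan day term. With that term 7 genes were lower and none higher.

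Of 20 T and NK cell genes 3 were lower, CD4 (-0.72, SE 0.10, adjusted p = 3.53e-06), GZMA (-0.82, SE 0.12, adjusted p = 6.38e-06) and CD3D (-0.52, SE 0.09, adjusted p = 6.8e-05). The 2 higher genes were CD3G (0.62, SE 0.17, adjusted p = 0.00498) and ZAP70 (0.60, SE 0.12, adjusted p = 0.000342). With the scan day term GZMA and CD3D passed, CD3D at -0.90 (adjusted p = 1.88e-05), and CD4, CD3G and ZAP70 did not. With normexp correction CD3G was lower (-0.36, adjusted p = 0.00295) and ZAP70 differed by -0.15 (adjusted p = 0.183). Of 10 B cell genes 4 were lower, among them CD79A, MZB1 and BLK (-0.76, -0.83 and -0.69), and CR2, a receptor of B cells and follicular dendritic cells, was higher (1.40, SE 0.31, adjusted p = 0.000691). Among 11 neutrophil and mast cell genes 5 were lower, with S100A8 (-1.54, SE 0.39, adjusted p = 0.00229) and KIT (-1.12, SE 0.16, adjusted p = 9.88e-06) in front, and 3 higher, with FCGR3A (1.36, SE 0.21, adjusted p = 1.82e-05) in front of CPA3 (0.80, SE 0.26, adjusted p = 0.0127), which did not pass with the scan day term. Of 7 erythrocyte genes HBQ1 alone passed (-0.31, SE 0.08, adjusted p = 0.00435), and it did not with the scan day term.

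Immediate early genes moved in both directions. All 3 members of the NR4A family, orphan nuclear receptors induced within an hour by many stimuli, were higher. NR4A1 ranged from 1.41 to 3.97 (median 1.88) in SC and from 3.73 to 4.80 (median 4.27) in Inter and differed by 1.90 (SE 0.26, adjusted p = 4.19e-06), NR4A2 by 0.91 (SE 0.23, adjusted p = 0.00238), which did not pass with the scan day term (0.70, adjusted p = 0.238), and NR4A3 by 2.77 (SE 0.30, adjusted p = 2.73e-07) at its brightest probe. ATF3, a stress-induced transcription factor, ranged from -0.52 to 2.86 (median 0.92) in SC and from 1.88 to 4.23 (median 3.08) in Inter and differed by 2.22 (SE 0.34, adjusted p = 1.9e-05). MAFF, a small MAF protein, and FOSL2, an AP-1 subunit, had no overlap (1.91, SE 0.20, adjusted p = 1.89e-07, and 1.64, SE 0.23, adjusted p = 6.01e-06), whereas other AP-1 subunits were lower, FOSB as above and JUN by a smaller step (-0.54, SE 0.13, adjusted p = 0.00176) that did not pass with the scan day term. CCN2, a target of TGF-beta and stretch, was higher (0.84, SE 0.18, adjusted p = 0.000488). Of 24 genes 10 were higher and 5 lower, and 4 of the higher genes and 1 of the lower had no overlap. Among 12 clock genes 5 were lower and 1 higher. NR1D1, which encodes REV-ERB alpha, ranged from -1.30 to 0.80 (median 0.10) in SC and from -3.18 to -0.48 (median -1.61) in Inter and differed by -1.67 (SE 0.23, adjusted p = 4.96e-06), and its fellow clock output genes BHLHE41, HLF and DBP were lower (-0.84, -0.76 and -0.65), HLF not with the scan day term. The labels do not give the time of slaughter or of dissection for each sample.

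Keratin, skin and mesothelial genes were the list with the largest share lower after the respiratory chain, 11 of 17, and none was higher. CLDN10, a tight junction protein, ranged from -1.84 to 3.84 (median 2.93) in SC and from -5.84 to 1.35 (median 0.02) in Inter, with 2 Inter arrays below every SC array, and differed by -3.39 (SE 0.74, adjusted p = 0.000694). These were Inter arrays 2 (-5.84) and 5 (-4.72), and without Inter arrays 2, 5 and 8 the difference was -2.32 (adjusted p = 0.00131). EPCAM, an adhesion protein of epithelia, ranged from -0.88 to 0.45 (median -0.34) in SC and from -2.35 to -0.96 (median -1.77) in Inter without overlap and differed by -1.33 (SE 0.15, adjusted p = 4.06e-07). UPK3B, a marker of mesothelium, differed by -0.997 (SE 0.11, adjusted p = 3.29e-07) without overlap, and KRT19 and KRT14, keratins of epithelia and epidermis, by -1.21 (SE 0.14, adjusted p = 4.53e-07) and -0.74 (SE 0.11, adjusted p = 8.29e-06). MSLN, which defines mesothelium, was above background on 8 of 12 arrays of each depot and did not pass (-0.61, adjusted p = 0.119).

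Genes of glucose, amino acid and ketone metabolism were lower in 9 of 33 and higher in 5, against 8 and 11 with normexp correction relative to the median of all probes. That setting had 23.7% of all named genes lower and 37.3% higher. TDH, threonine dehydrogenase, ranged from -1.29 to 1.98 (median 1.02) in SC and from -4.996 to 0.67 (median -0.69) in Inter and differed by -2.04 (SE 0.54, adjusted p = 0.00369), with the lowest level (-5.00) on Inter array 5, without which it was -1.67 (adjusted p = 0.00349). GCAT, the next enzyme of threonine breakdown, was lower as well (-1.08, SE 0.30, adjusted p = 0.00454). Pyruvate carboxylase, PC, ranged from 3.19 to 4.41 (median 3.97) in SC and from 1.29 to 3.096 (median 2.72) in Inter without overlap and differed by -1.30 (SE 0.18, adjusted p = 4.62e-06), and PDK2, a kinase that inhibits pyruvate dehydrogenase, by -0.78 (SE 0.10, adjusted p = 3.1e-06) without overlap. FBP1, an enzyme of gluconeogenesis, was higher (0.91, SE 0.18, adjusted p = 0.000263) but did not pass with the scan day term. In fatty acid oxidation 7 of 24 genes were lower and 3 higher, with ECHS1 (-0.60, SE 0.19, adjusted p = 0.0142) and ACOX2 (0.77, SE 0.18, adjusted p = 0.00114) as examples, but with quantile normalisation 5 were lower, 4 higher and ECHS1 did not pass, and with normexp correction relative to the median 2 were lower and 8 higher.

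The cholesterol and oxysterol list held genes of both directions. CH25H, cholesterol 25-hydroxylase, ranged from -2.68 to -1.06 (median -1.96) in SC and from -0.84 to 1.58 (median 0.31) in Inter without overlap and differed by 2.14 (SE 0.25, adjusted p = 6.2e-07), or 4.42-fold. INSIG1, which senses sterols, CYP51A1 and SQLE were also higher (1.14, 0.80 and 0.78, adjusted p = 0.000149, 0.000648 and 0.00607). Over 24 genes 6 were higher and 5 lower, with a median of -0.12, where 19.9% of all named genes were higher and 33.3% lower. The genes named here are all of the higher side. The summed level of the list was lower on every Inter array (6.94 to 7.32 on the log2 scale) than on every SC array (7.34 to 8.04). Among 17 retinoid genes CRABP2, which carries retinoic acid to its receptor, ranged from -1.45 to 0.44 (median -0.38) in SC and from -3.58 to -0.65 (median -2.36) in Inter and differed by -1.88 (SE 0.26, adjusted p = 5.18e-06), and ALDH1A1, which makes retinoic acid, by -0.58 (SE 0.16, adjusted p = 0.00394), while RARRES1, a gene that responds to it, was higher (1.52, SE 0.20, adjusted p = 3.32e-06). TMEFF2, a transmembrane protein with follistatin-like domains that the study tabulates for Inter, ranged from -6.33 to -2.28 (median -4.77) in SC and from -2.44 to -1.71 (median -2.08) in Inter and differed by 2.52 (SE 0.34, adjusted p = 3.83e-06).

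Respiratory chain and ribosomal genes shifted by small, scaling-dependent steps. Of 63 respiratory chain genes 44 were lower and none higher, with a median of -0.31, but 14 were lower and 7 higher with quantile normalisation and 1 lower and 18 higher with normexp correction relative to the median of all probes. By the last setting 23.7% of all named genes were lower and 37.3% higher. NDUFV1, a subunit of complex I, ranged from 3.92 to 4.80 (median 4.52) in SC and from 2.82 to 4.17 (median 3.69) in Inter and differed by -0.82 (SE 0.14, adjusted p = 4e-05). Of 72 cytosolic ribosomal genes 38 were lower and 1 higher, with a median of -0.15, but none was lower and 44 were higher with quantile normalisation. RPLP1, a stalk protein of the large subunit, differed by -0.53 (SE 0.07, adjusted p = 2.59e-06), and with quantile normalisation by 0.03. No direction can be given for the ribosomal genes.

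**Figure D4:**
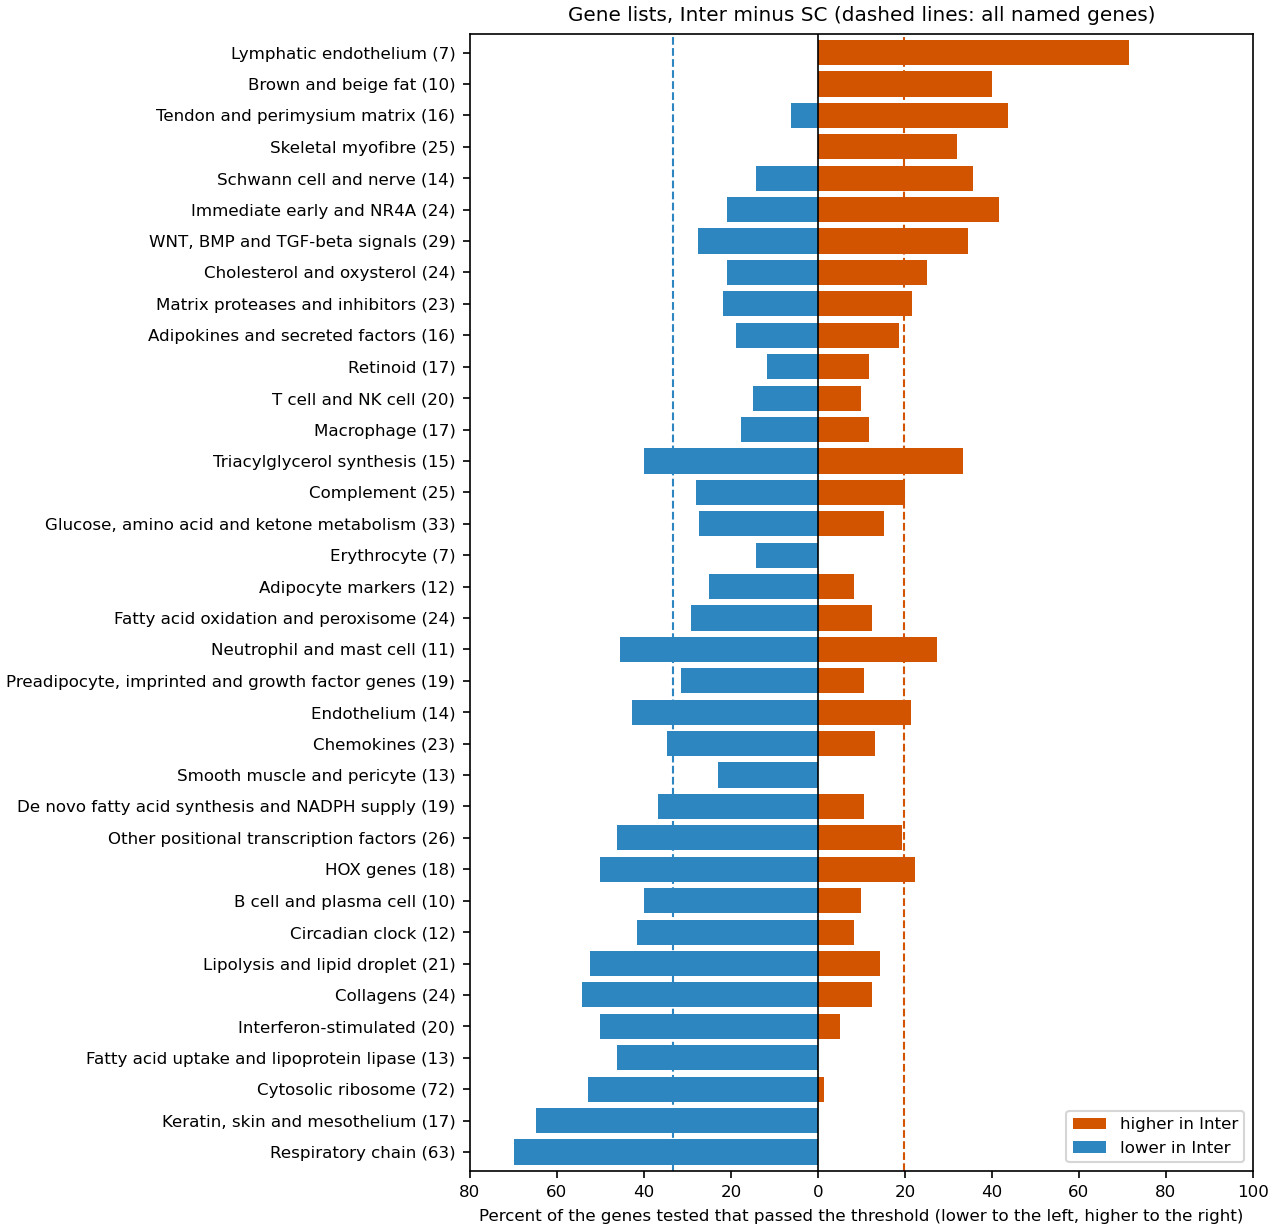
Share of the tested genes of each list (number in brackets) that passed the threshold, in percent, higher in Inter to the right and lower to the left; dashed lines mark the shares among all named genes, 19.9% higher and 33.3% lower. Lymphatic, tendon and immediate early genes lie furthest to the right, and the respiratory chain and the keratin list furthest to the left; the respiratory chain and ribosome shares turn with the scaling.

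Across the 36 lists together, 116 of 725 genes were higher (16%) and 263 lower (36.3%), against 19.9% and 33.3% of all named genes.

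A dependence of the difference on breed was not detectable with 4 arrays per breed and depot. No probe of 34227 had a difference that depended on breed after adjustment by limma, the lowest adjusted p was 1, and 1157 probes had an unadjusted p under 0.05. Of the 16884 probes past the threshold 16670 had the same direction in all 3 breeds, as had all 1282 probes without overlap. Within Angus 2746 probes passed, within Wagyu x Angus 4358 and within Hereford 6533. The 2 Wagyu x Angus arrays with muscle transcripts and Inter array 5, an Angus array, lie in the 2 breeds with the lower counts, and their part in that order was not tested.

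Adding scan day to a fit over the 96 arrays, in which arrays of Kid, Omen and LD connect the days, left 12848 probes (37.5%) past the threshold. Of the 16884 probes past it without the term, 10159 were also past it with the term in the same direction and 862 changed sign. The median ratio of the differences with and without the term was 0.922, and 0.959 among probes without overlap, of which 1207 of 1282 passed in the same direction. Between 5 Kid arrays scanned on the SC day and 6 scanned on the Inter day 901 probes (2.63%) differed. The latter included the Kid array that correlated more with Inter. With so few arrays fewer probes can pass, so this share is not set beside that of the depots. HOXA10, FNDC1, PHLDA2, IRX5 and ZIC4 kept differences of -5.73, 4.07, 3.50, -4.17 and 4.29. These estimates assume that a day shifts a probe alike in all tissues, and 1 of the 12 SC arrays was scanned on a day apart from both. By the study's account the LD samples came from different kills, and the fit has no term for the kill. The same term over the 60 fat arrays, in which LD does not link the days, left 7115 probes past the threshold and ended 85 of the 210 calls at named probes, against 30 over the 96 arrays.

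**Figure D5:**
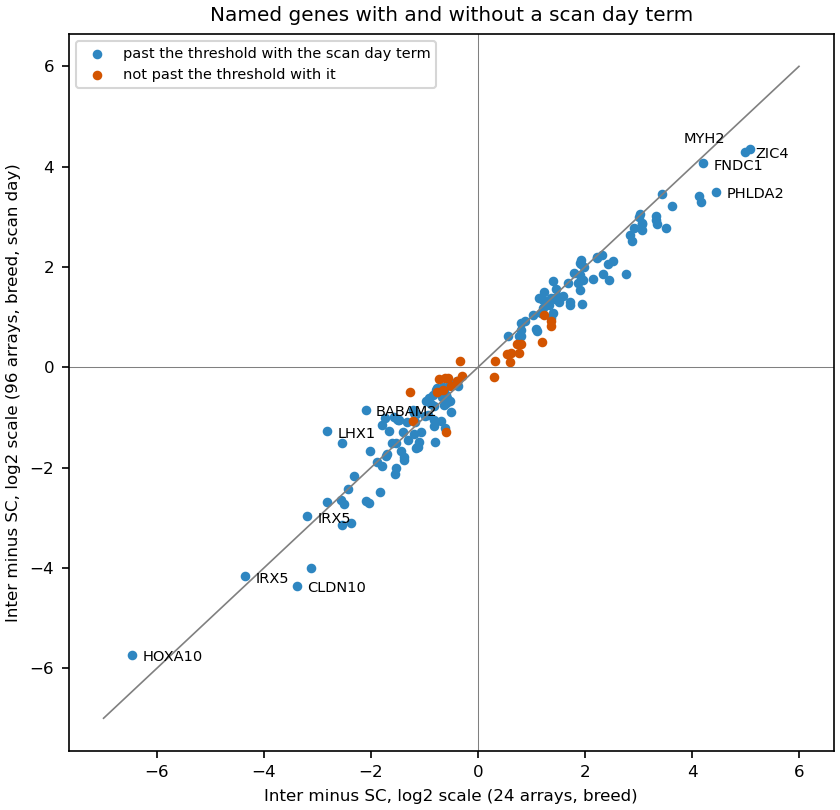
Inter minus SC difference of each probe that the selection rule names on the log2 scale in the fit of the 24 arrays with breed (horizontal) against that in the fit of 96 arrays with breed and scan day (vertical); the line marks equality and orange points did not pass the threshold with the day term. Most points lie near the line, and the points that no longer passed lie within 1.5 of 0 on the horizontal axis.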

How the data were processed

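Total RNA was labelled with Cy3 and read on a bovine Agilent oligonucleotide array, 4 arrays per slide, with Agilent Feature Extraction 10.7.3.1 as the submitters' processing notes give. For each array the authors deposited the scanner output, from which the processed signal, a linear intensity after background subtraction, was taken. They also deposited a matrix of log2 values for 34227 probes, and these equal log2 of the median signal less its local background, without the mixed model normalisation that the methods describe. Here the 34227 probes were tested on log2 processed signal scaled to the 75th percentile. Spots with outlier marks were dropped, replicate spots averaged and dim probes kept, and no array had a saturated spot. Sterol measurements and PCR of the study were not analysed here, and no sequences or coordinates are used.

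Depots were compared in limma 3.58.1 (R 4.3.3) by lmFit and eBayes with breed as a covariate, with Benjamini-Hochberg adjustment over all probes at a threshold of 0.05. Tables and figures were made in python 3.11.15 with numpy 2.4.6, pandas 2.3.3 and matplotlib 3.10.9. The fits were also run on simulated arrays with independent values, which hold no effect of slide, scan day or shared animals. The number of arrays limits the precision. A probe that was dim on every array of one depot has only a bound, written as at least N-fold. It sets the brighter depot's mean against the dim depot's, in which each array counts with its faintest detected signal or the probe's own, whichever is higher.

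Gene symbols came from RefSeq accessions (19903 probes) and from the probe tables of the study (4446 probes), which together named 21445 probes (62.7%) and 10653 genes. Both sources covered 2904 probes and gave the same symbol for 2749. Where a gene had several probes, the brightest over the fat arrays stands for it in the list counts.

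The comparison, the 36 gene lists and the rules were chosen with earlier results of these data known. The text names the 10 highest and 10 lowest differences without overlap, over all probes and over probes with a mean level above 0, up to 4 members with the largest difference of each list past the threshold, the markers that define a cell type, and 6 genes the study tabulates for Inter (HOXA10, DLK1, TDH, TMEFF2, CLDN10 and CH25H). The study also tabulates Inter levels of TNMD, MKX, TNC, INHBA, COL28A1, NR4A3, ANGPTL4, IGFBP5, BABAM2 and ZCCHC12, and none of these genes is independent evidence. Further list members past the threshold were named after their values were seen: HOXB2, HOXA5, HOXB9, MSX2, TBX4, SHOX2, FASN, ACLY, DGAT2, PNPLA2, MGLL, TNC, ASPN, PMP22, FOSL2, NR4A2, JUN, CCN2, CXCL12, COL3A1, COL18A1, COL15A1, INHBA, LTBP1, FST, BMP2, GCAT, PDK2, SQLE, KRT14, CKM, TTN, TIMP4, MMP14, IGFBP4, FBP1 and C1QB. CD3D was named in the same way but later, and the counts of named probes do not include it. The rule's genes for breed dependence are not named, as the lowest adjusted p was 1. Some genes that the rule names are not reported here.

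Alternatives were quantile normalisation, centring on the array mean, normexp with an offset of 50 (on the median signal, since the mean signal is not in the scanner columns used), the deposited matrix, every non-control probe (43653), a detection filter at 50% of a depot's arrays, the methods' t-test, no breed term, the spread of all 60 fat arrays, slide as a random block, scan day as a term over 96 or 60 arrays, the SC array of another day left out, the replicate number as a block, each breed alone, the mean of a gene's probes and each array left out in turn. Chosen after seeing the data were leaving out Inter arrays 2 and 8, with or without array 5, scan day over 94 arrays (without Inter array 5 and Kid array 2) and values relative to the median of all probes.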

Additional observations from a re-analysis of the deposited data

How the results depend on the processing

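Against 16884 probes past the threshold (7467 higher and 9417 lower in Inter), the deposited matrix gave 31082 (30954 and 128), or 6436 (2890 and 3546) relative to the median of all probes. Normexp gave 4521 higher and 18917 lower, and scan day over the 60 fat arrays 7115 (3031 and 4084). Single breeds, with fewer arrays, gave 2746 in Angus (1453 and 1293), 4358 in Wagyu x Angus (1810 and 2548) and 6533 in Hereford (2732 and 3801). Of the genes of all lists together 16% were higher and 36.3% lower. The shares were 81.4% and 2.21% on the deposited matrix (17.9% lower relative to the median), 25.5% and 23.2% with quantile normalisation, 31.7% and 21.8% with normexp relative to the median, 6.76% and 12.8% with scan day over the 60 fat arrays, 5.93% and 4.55% in Angus, 6.21% and 9.79% in Wagyu x Angus and 6.9% and 14.8% in Hereford. The other settings stayed within 1.5 times of these counts. Leaving out each array in turn gave 16079 to 17055 probes (7116 to 7478 higher and 8888 to 9608 lower), 14.8 to 17.1% of list genes higher and 33.5 to 36.4% lower, and 0 to 1 probes with a dependence on breed, the 1 without Inter array 7.

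On the deposited matrix 52 of the 211 named probes changed sign, and 0 did relative to the median of all probes. With normexp 7 did, or 5 relative to the median. The remaining sign changes, and the 5, were as follows. Scan day over 96 arrays gave ADIPOQ -0.193 and DLK1 0.115, and over 94 arrays ADIPOQ -0.07 and ZAP70 -0.003. Over the 60 fat arrays it gave RDH16 -1.605. Quantile normalisation gave FABP4 0.055 and RPLP1 0.033. Normexp relative to the median gave CD3G -0.073, DLK1 0.006, PROX1 -0.086, RDH16 -0.225 and TMEM26 -0.364. In Angus DLK1 was 0.027 and in Hereford MKX -0.28. RDH16, a retinoid dehydrogenase gene (0.77, adjusted p = 0.038 by limma), also did not pass when any 1 of 11 arrays was left out. With normexp relative to the median, 31 further named genes kept their direction but did not pass, namely ALDH1A1, C1QTNF1, CEBPA, COL11A2, COL28A1, COX8A, CPA3, CPT1B, CSPG4, DGAT2, ECHS1, HBQ1, IGFBP4, JUN, LGI1, MCAM, MKX, NDUFA10, NDUFS7, PNPLA2, RPL13A, RPL36, RPS2, SLC27A1, SLC27A4, SMTN, SOX18, TNMD, TNNT1, VSIG4 and ZAP70. Quantile normalisation did this to 10 (ALDH1A1, CEBPA, CIDEC, DGAT2, ECHS1, MCAM, PNPLA2, RPL13A, RPL36 and RPS2), slide as a random block to 9 (ACADL, C1QB, CKM, COL11A2, CPA3, RDH16, TNNT1, TTN and VSIG4), scan day over 96 arrays to 29 and over the 60 fat arrays to 85. Centring on the mean, normexp and the matrix moved the median of all probes by 0.121, -0.235 and 1.024. The causes were not tested.

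Replicate numbers equal the position on the slide. Same-numbered Inter and SC arrays deviated together with r of 0.0601 to 0.181, not all over 0.1, so they were not taken as pairs. With the replicate number as a block 16897 probes passed (7455 higher and 9442 lower). Signal over background limits the differences of dim probes, among them DSP and MYH2, above background on 1 of 12 SC arrays each, FNDC1 on 5 and TMEM26 on 1.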
